A study of Capsicum annuum with 78 samples.

Results

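Ethephon was compared with mock treatment 6 h after spraying in leaves of pepper (Capsicum annuum cv. Bukang), using 6 of the 78 RNA-seq libraries of a phytohormone series. The 3 ET libraries at 6 h (plants sprayed with 5 mM ethephon) were set against the 3 mock libraries at 6 h (plants sprayed with distilled water), across all genes of the count table. The libraries were chosen by their labels alone. All plants were of the same cultivar, were 6 weeks old by the labels, and were grown at the same day length. Leaves of 4 plants were pooled for each replicate, and each treatment was incubated separately. A difference between ET and mock therefore cannot be told apart from a difference between incubations. The other libraries of the series are mock leaves at 0, 1, 3, 12 and 24 h, ET leaves at 1, 3, 12 and 24 h, and leaves treated with sodium salicylate (SA, 5 mM), methyl jasmonate (MeJA, 100 μM) or ABA (100 μM) at 1 to 24 h.

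Ethephon is taken up by leaves and breaks down at the pH of plant cells, which sets ethylene free. Phosphate and chloride are formed with it, so in a comparison with water the effect of ethylene cannot be told apart from that of the other products. In Arabidopsis, ethylene binds receptors in the endoplasmic reticulum and thereby turns off the kinase CTR1, which otherwise holds back the membrane protein EIN2. A part of EIN2 then reaches the nucleus, transcription factors of the EIN3 family accumulate, and these switch on genes for ethylene response factors (ERFs) and other targets. In leaves ethylene is known for its part in senescence, in leaf shedding and in defence. The enzymes ACC synthase and ACC oxidase make the hormone in the plant itself. None of these genes could be followed by name, because 0 of the 35884 identifiers of the count table were found in the RefSeq gene table of the assembly UCD10Xv1.1, and the count table itself holds identifiers only. The ethylene pathway and the markers of leaf tissue were therefore not analysed here, and only 4 genes are described by identifier, chosen by a fixed rule. No sequence is shown for the same reason.

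The ET libraries held 7075942, 7472707 and 7815413 counts, against 7090509, 8034217 and 8357328 counts in the mock libraries. With 3 counts as the floor of detection, the lowest measurable level was between 0.384 and 0.424 CPM (counts per 1000000 counts of the library) after ET and between 0.359 and 0.423 CPM in mock. In the ET libraries 21417 to 21714 genes were detected with 1 count or more, against 21450 to 21890 genes in the mock libraries. Neither the depth (p = 0.4) nor the number of detected genes (p = 0.6, exact permutation tests, two-sided) differed beyond the spread between the libraries. The smallest p that 3 libraries against 3 can give is 0.1. On log2(CPM + 1), Pearson's r across genes was 0.987 to 0.988 between ET libraries, 0.987 to 0.989 between mock libraries, and 0.901 to 0.908 between an ET and a mock library. For all 6 libraries, the most similar of the other 77 libraries of the series belonged to the same group. Genes are not independent replicates, so these correlations describe the libraries and carry no test.

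At 6 h, transcripts of about 50% of the genes tested differed in level between ET and mock leaves. Of 18757 genes tested, 4669 (24.9%) were higher after ET and 5190 (27.7%) were lower, together 52.6% (adjusted p under 0.05, Benjamini-Hochberg adjustment of the quasi-likelihood test of edgeR). Most of these differences were small. The median log2 fold change (ET minus mock) was 0.74 over the genes called higher and -0.89 over the genes called lower, and -0.02 over all genes tested. The larger number of lower genes was not stable. With upper-quartile scaling 5054 genes were higher and 4867 lower, with library totals alone 5078 and 4682, and with all 78 libraries in one fit 4923 and 4681. The share called depended on the setting as well. Called were 9604 of 19480 genes tested with all 78 libraries, 9829 of 26719 without a filter and 9984 of 17418 with only the 6 libraries. Without mock replicate 3 of 6 h, 8871 of 19029 were called. The replicates lay close together, with a median SD of 0.157 between ET libraries and 0.145 between mock libraries on the log2(CPM + 1) scale. The CPM values of the 2 groups did not overlap in 4555 of the 4669 genes called higher and in 4850 of the 5190 called lower. Over all genes tested, 31.6% lay higher in ET without overlap and 28.9% lower. In bulk leaf tissue, fewer cells of a type and less RNA per cell cannot be told apart.

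**Figure D1:**
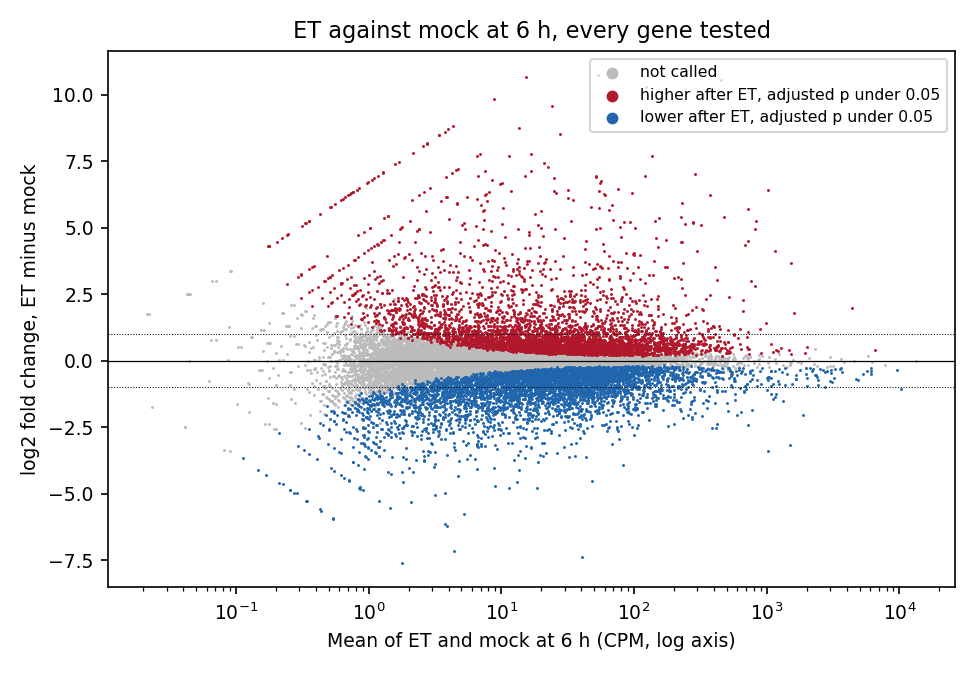
Log2 fold change (ET minus mock at 6 h, edgeR) of the 18757 genes tested against the mean of both groups in CPM (log axis). Red points are the 4669 genes called higher after ET and blue points the 5190 called lower, dotted lines mark a 2-fold difference, and the straight rows of points at low level are genes with 0 or 1 counts in one group.

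Rises and falls differed in their sizes. Falls were more numerous among moderate differences, and rises among large ones. At least a 2-fold difference (an absolute log2 fold change of 1) was reached by 1644 genes that rose (8.76% of those tested) and by 2238 genes that fell (11.9%), together 20.7%. Between 2-fold and 4-fold lay 938 of the rises and 1698 of the falls. At least 4-fold were 706 rises and 540 falls, and at least 8-fold 378 rises and 151 falls. This crossing held under each of the 4 scalings tried. With at least 10 counts in every library, 788 rises and 1304 falls of at least 2-fold were left. The split at 4-fold and 8-fold was not counted under that filter. With library totals alone there were 1763 rises and 2046 falls of at least 2-fold, and 385 rises and 148 falls of at least 8-fold. For genes with 0 counts in the whole lower group the fitted fold change depends on the prior count, and these were 46 of the 378 rises and 16 of the 151 falls of at least 8-fold. The median log2 fold change was 1.78 over the 1644 raised genes and -1.48 over the 2238 lowered genes. With the genes at 0 counts set to their bound from the floor of 3 counts, it was 1.75 and -1.48.

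**Figure D2:**
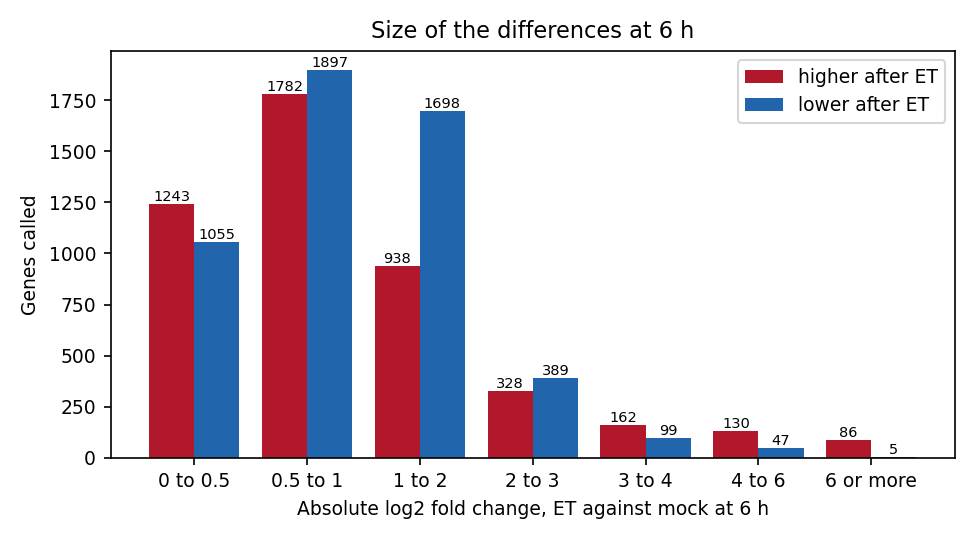
Number of genes called at 6 h (adjusted p under 0.05) by the absolute log2 fold change between ET and mock, with rises in red and falls in blue. Falls outnumber rises from 1 to 2 (1698 against 938), and rises outnumber falls at 3 and above.

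The genes raised at least 2-fold had lower levels in mock leaves than the genes lowered at least 2-fold. To avoid the libraries that chose the genes, levels were read from the 12 mock libraries of 1, 3, 12 and 24 h. There the median level was 3.92 CPM for the raised genes, 13.4 CPM for the lowered genes and 13.1 CPM for all genes tested. The filter itself favours this order. A gene near 0 in mock was tested only if it was high in an ET group, and a lowered gene had to be present in mock. The share of genes called was also larger at higher levels. By the mean of the 24 ET and mock libraries of the other time points, 28.8% of the genes under 1 CPM were called at 6 h, 43.4% of those from 3 to 10 CPM, 68.7% of those from 30 to 100 CPM and 69.8% of those at 300 CPM or more. Differences of at least 2-fold were more frequent under 3 CPM than from 10 to 30 CPM in both directions. Raised were 14.1% of the genes under 1 CPM, 11.4% of those from 1 to 3 CPM and 7.09% of those from 10 to 30 CPM, and lowered were 14.6%, 14.8% and 10.2% of these genes. At 300 CPM or more 6.28% were raised and 13.0% lowered, so the share of falls did not decline steadily with level. A gene of low level at the other times could pass the filter through a high level in the ET or mock libraries of 6 h. This favours differences at 6 h among the genes of low level. Among the 430 most abundant genes (300 CPM or more), 98 were higher after ET and 202 were lower. With library totals alone these were 117 and 204, and with the other 2 scalings the lower genes were again the larger number. Of these abundant genes 27 rose and 56 fell by at least 2-fold. Of the 331 genes with a 2-fold difference that were not called, 327 had a mean under 10 CPM at the other time points. The 3890 genes of at least 10 CPM that were not called had a median absolute log2 fold change of 0.14, with a median standard error of 0.13.

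A few genes were counted in one group only. In 20 genes all 3 mock libraries had 0 counts and every ET library had at least 10. These were at least 4.42-fold to 80.3-fold higher after ET, with 12.3-fold as the median of the bounds, measured against the floor of 3 counts per library. The highest of them reached a mean of 30.9 CPM after ET. In 7 of the 20 genes all 18 mock libraries of the series, 0 h included, had 0 counts. The reverse pattern, 0 counts in the ET libraries and at least 10 in every mock library, was found in 1 gene, which is described below as CA.PGAv.1.6.scaffold1478.11.

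Together the changes moved a sizeable share of the counts between genes. The 1644 raised genes took 12.92%, 12.01% and 12.11% of the counts in the ET libraries, against 2.88%, 2.88% and 2.87% in the mock libraries. The 2238 lowered genes took 4.82%, 4.92% and 4.81% of the counts after ET, against 13.0%, 12.7% and 13.3% in mock. These shares at 6 h follow from the choice of the genes and carry no test. At the other time points, whose libraries did not choose the genes, the ET and mock libraries again did not overlap. The raised genes took 4.52% ± 0.27 of the counts after ET and 3.17% ± 0.06 in mock at 1 h, 8.97% ± 0.38 after ET and 3.02% ± 0.12 in mock at 3 h, 13.1% ± 0.41 after ET and 3.07% ± 0.26 in mock at 12 h, and 6.68% ± 0.16 after ET and 2.93% ± 0.31 in mock at 24 h (SD, n = 3 each). The lowered genes took 11.1% ± 0.10 after ET and 15.8% ± 0.33 in mock at 1 h, 7.64% ± 0.15 after ET and 14.3% ± 0.52 in mock at 3 h, 5.96% ± 0.14 after ET and 13.05% ± 0.17 in mock at 12 h, and 10.7% ± 0.19 after ET and 16.1% ± 0.26 in mock at 24 h. For the raised genes the ET libraries of 6 and 12 h overlapped in share. The 10 most abundant genes of each library took 7.48% ± 0.46 of the counts after ET at 6 h and 8.48% ± 0.11 in mock (SD, n = 3, p = 0.1, exact permutation test, the smallest it can give).

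**Figure D3:**
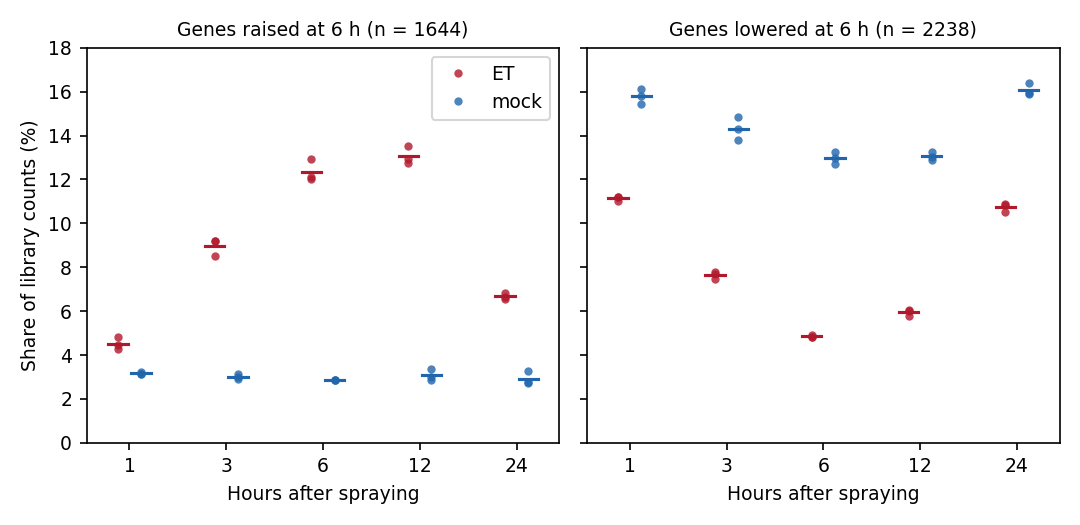
Share of all library counts (%) taken by the 1644 genes raised at 6 h (left) and the 2238 genes lowered at 6 h (right) at 1, 3, 6, 12 and 24 h after spraying, with ET in red and mock in blue, a point for each library and a bar for the mean of 3. The ET and mock libraries do not overlap at any time point, and the distance is smallest for the raised genes at 1 h (4.52% after ET and 3.17% in mock).

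The rule for single genes named 2 rises and 2 falls among the genes called at 6 h (adjusted p under 0.05, edgeR). In each direction it took the largest log2 fold change with at least 10 counts in each library of the higher group. It also took the largest difference in mean CPM. These genes were thus sure to pass the test at 6 h, and their adjusted p values there are a description. CA.PGAv.1.6.scaffold744.5 had 763, 937 and 704 counts in the ET libraries, against 1, 0 and 0 counts in the mock libraries. In CPM these were 107.8, 125.4 and 90.1 after ET, against 0.141, 0 and 0 in mock. Mock libraries held at most 1 count of this transcript, and in the ET libraries it ranked between 1349 and 2058 among all genes by counts. The adjusted p of its rise was 2.19e-21 (edgeR). The ratio of the pooled counts was 2524 (95% counting interval 453 to 99741, exact binomial), which rests on a single count in mock.

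The same gene followed a clear course after ET. Its mean was 0.578 ± 0.31 CPM at 1 h, 39.6 ± 9.4 CPM at 3 h, 107.8 ± 17.7 CPM at 6 h, 61.0 ± 5.4 CPM at 12 h and 10.4 ± 2.3 CPM at 24 h (SD, n = 3), while no mock library of 1 to 24 h held more than 1 count. Its bound at 12 h, with 0 counts in each mock library, was at least 146.5-fold higher after ET. The highest level of ET leaves was thus measured at 6 h. The differences in fold change between 6 h and the other time points did not pass the test, with adjusted p between 0.062 and 0.65 (edgeR). With at most 1 count in a mock library these fold changes are imprecise, so the result does not show that they were equal.

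The rise with the largest gain in counts was that of CA.PGAv.1.6.scaffold1014.55. It had 6946, 7481 and 6716 CPM after ET, against 1753, 1721 and 1698 CPM in mock. This abundant transcript ranked between 5 and 6 among all genes by counts in the ET libraries, and between 63 and 64 in the mock libraries. Its log2 fold change was 1.98 ± 0.12 (SE, adjusted p = 3.31e-15, edgeR). In ET leaves its mean was 2790 ± 151 CPM at 1 h, 5987 ± 407 CPM at 3 h, 7048 ± 392 CPM at 6 h, 7379 ± 480 CPM at 12 h and 6674 ± 293 CPM at 24 h, against 1806 ± 137, 2278 ± 263, 1724 ± 28, 940 ± 35 and 1906 ± 230 CPM in mock leaves at the same times (SD, n = 3). The log2 difference from mock was larger at 6 h than at 1 h by 1.29 (adjusted p = 4.4e-07) and than at 3 h by 0.61 (adjusted p = 0.0155), and smaller than at 12 h by 0.86 (adjusted p = 0.000335, edgeR). The difference between 6 and 24 h did not pass (0.28, adjusted p = 0.26, edgeR). The gene was chosen by its difference at 6 h, which favours 6 h in these tests, so they are a description. At 12 h the ET level was near that of 6 h, and the mock level was lower than at 6 h.

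The largest fitted fall was that of CA.PGAv.1.6.scaffold1478.11, a transcript of low level. It had 0 counts in all 3 ET libraries, against 32, 30 and 20 counts (4.51, 3.73 and 2.39 CPM) in the mock libraries. It was at least 8.80-fold lower after ET (adjusted p = 4.62e-08, edgeR), measured against the floor of 3 counts per library. It also had 0 counts in every ET library at 3, 12 and 24 h, where it was at least 3.32-fold, 14.1-fold and 9.62-fold lower. At 1 h it had 0, 2 and 0 counts after ET, against 7, 10 and 8 in mock. The transcript was thus below the floor in all 15 ET libraries.

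The fall with the largest loss of counts was that of CA.PGAv.1.6.scaffold92.11, the most abundant gene of every mock library at 6 h. It had 6328, 8060 and 6033 CPM after ET, against 13479, 13655 and 14146 CPM in mock, and ranked 7, 3 and 7 by counts in the ET libraries. Its log2 fold change was -1.06 ± 0.14 (SE, adjusted p = 4.44e-08, edgeR). In ET leaves its mean was 22678 ± 1047 CPM at 1 h, 15606 ± 592 CPM at 3 h, 6807 ± 1095 CPM at 6 h, 5386 ± 791 CPM at 12 h and 22816 ± 1628 CPM at 24 h (SD, n = 3). In mock leaves the means were 23995 ± 1391, 20302 ± 563, 13760 ± 346, 12840 ± 251 and 23848 ± 2530 CPM at the same times, so the transcript varied between time points there too. The difference between ET and mock was called at 3 h (log2 fold change -0.40, adjusted p = 0.0143), 6 h and 12 h (-1.39, adjusted p = 1.34e-10), but not at 1 h (-0.02, adjusted p = 0.941) or at 24 h (-0.17, adjusted p = 0.304, edgeR). It was larger at 6 h than at 1 h (adjusted p = 6.4e-05), 3 h (adjusted p = 0.0182) and 24 h (adjusted p = 0.000741) by direct test (edgeR). The difference between 6 and 12 h did not pass (log2 difference 0.33, adjusted p = 0.248, edgeR). This gene too was chosen by its difference at 6 h, which favours 6 h in these tests, so they are a description. The lowest levels were measured at 6 and 12 h in both ET and mock leaves.

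**Figure D4:**
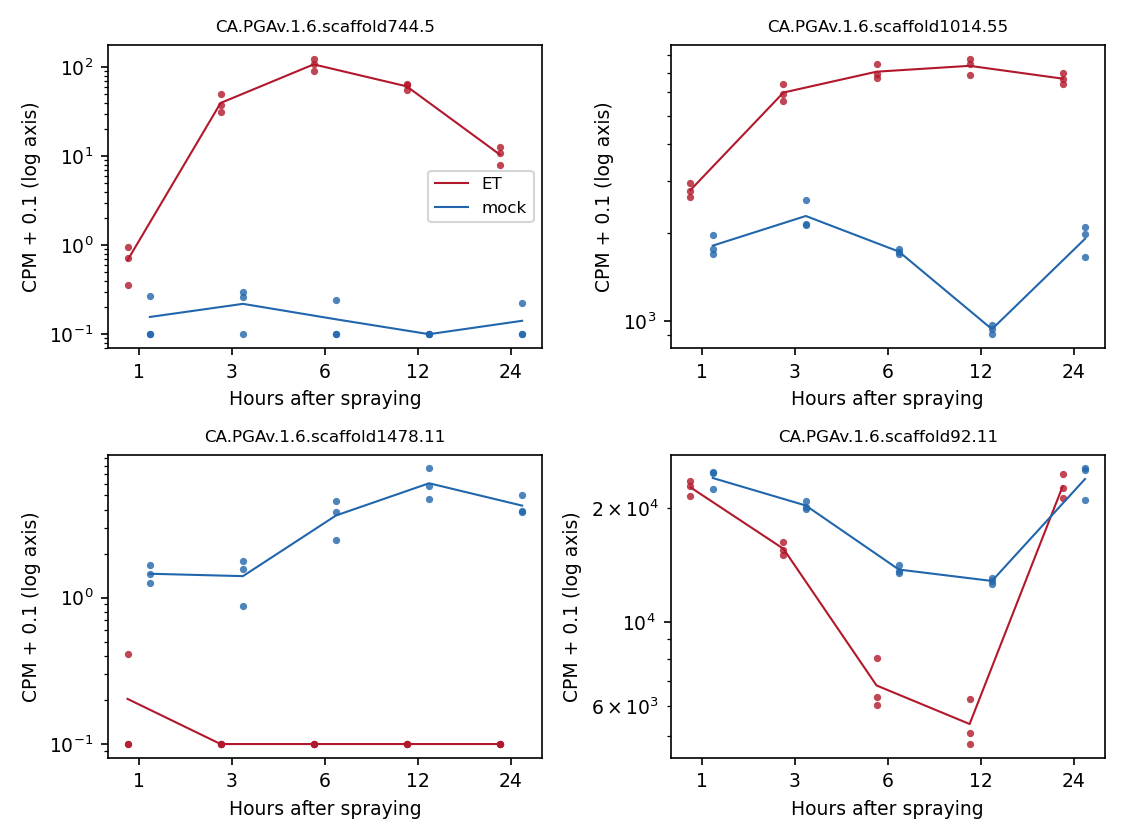
Level (CPM + 0.1, log axis) of the 4 genes described by identifier in the 15 ET libraries (red) and the 15 mock libraries (blue) of 1, 3, 6, 12 and 24 h, with a point for each library and lines through the means of 3. At 6 h the 3 ET libraries lie above the 3 mock libraries in both panels of the upper row and below them in both panels of the lower row, and points at 0.1 are libraries with 0 counts.

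Most genes raised or lowered at least 2-fold at 6 h were called in the same direction at 3 and 12 h. The contrasts of the other times use other libraries, but share with that of 6 h the filter, the scaling and the estimate of a gene's spread. ET and mock plants were incubated separately, and a difference between incubations common to all times cannot be told apart from the treatment. Of the 1644 raised genes, ET was higher than mock in 761 (46.3%) at 1 h, in 1324 (80.5%) at 3 h, in 1374 (83.6%) at 12 h and in 921 (56.0%) at 24 h. Over all genes tested, 17.7%, 22.9%, 28.4% and 24.2% were called higher at these times. Of the 2238 lowered genes, ET was lower than mock in 1093 (48.8%) at 1 h, in 1603 (71.6%) at 3 h, in 1626 (72.7%) at 12 h and in 1472 (65.8%) at 24 h, where 19.0%, 22.8%, 29.7% and 23.6% of all genes were. With a difference of at least 2-fold at both times, 1098 genes were raised at 3 and 6 h, which is 66.8% of the 6 h list and 63.8% of the 3 h list (9.17% of all genes tested). At 6 and 12 h 1179 genes were raised, which is 71.7% of the 6 h list and 51.7% of the 12 h list (12.2% of all genes tested). Of the lowered genes 1095 were shared with 3 h (48.9% of the 6 h list and 68.6% of the 3 h list) and 1275 with 12 h (57.0% and 53.3%), and these lists hold 8.51% and 12.8% of all genes tested.

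The medians over the genes tell the same course. Over the raised genes the median log2 fold change (ET minus mock) at 1, 3, 6, 12 and 24 h was 0.68, 1.53, 1.78, 1.745 and 0.87. Over the lowered genes it was -0.61, -1.03, -1.48, -1.17 and -0.95 at these times. The value at 6 h is drawn outward in both lists, since the genes were chosen there. The median of all genes tested stayed between -0.02 and 0.02 at every time point.

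**Figure D5:**
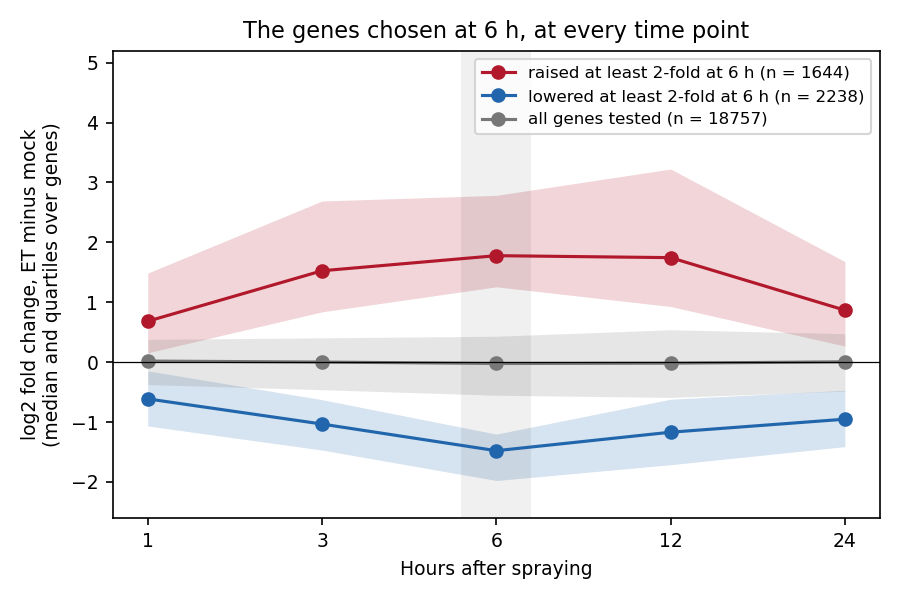
Median (points) and quartiles (bands) over genes of the log2 fold change between ET and mock at 1, 3, 6, 12 and 24 h, for the 1644 genes raised at 6 h (red), the 2238 genes lowered at 6 h (blue) and all 18757 genes tested (grey). The shaded column marks 6 h, where the genes were chosen, and the 2 lists lie apart from 0 at the other time points as well, with medians of 0.68 and -0.61 at 1 h.

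Many genes of the lists were called in the same direction before 6 h. The first call was read from the adjusted p alone, without the 2-fold rule. Of the raised genes 761 (46.3%) were first called higher at 1 h, 586 (35.6%) at 3 h and 297 (18.1%) at 6 h. Of the lowered genes 1093 (48.8%) were first called lower at 1 h, 581 (25.96%) at 3 h and 564 (25.2%) at 6 h. A call in the same direction at all 5 time points was found for 471 raised genes (28.6%) and 822 lowered genes (36.7%), where 5.29% and 8.04% of all genes tested were called higher or lower at all 5. The lists hold only genes called at 6 h, which by itself raises their share. The call came with at least 2-fold at all 5 times in 243 raised and 307 lowered genes. At 1 and 24 h such 2-fold rises were found in 5.40% and 7.99% of all genes tested, and 2-fold falls in 4.92% and 8.98%. The log2 fold change was largest at 6 h for 641 raised genes (39.0%), at 12 h for 517 (31.4%) and at 3 h for 330 (20.1%). Among the lowered genes it was furthest from 0 at 6 h in 1163 (52.0%) and at 12 h in 535 (23.9%). The choice of the genes at 6 h favours that time in these counts.

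Whether the difference at 6 h was itself unlike that at another time was tested directly, as a difference of differences in the same fit. Over all genes tested, the ET effect at 6 h differed from that at 1 h in 4825 genes (25.7%), from that at 3 h in 2117 (11.3%), from that at 12 h in 3730 (19.9%) and from that at 24 h in 3909 (20.8%, adjusted p under 0.05, edgeR). The time point least unlike 6 h by this count was 3 h. The ET effect at 6 h lay above that at 1, 3, 12 and 24 h in 11.8%, 4.24%, 9.03% and 8.76% of all genes, and below it in 14.0%, 7.04%, 10.9% and 12.1%. The genes were chosen for a large difference at 6 h and these tests use the same 6 h libraries, so the choice itself favours 6 h in the counts that follow, which are a description. Among the 1644 raised genes, 814 lay further above mock at 6 h than at 1 h and 32 less far. Against 3 h these were 299 and 83 genes, against 12 h 256 and 212, and against 24 h 686 and 30. Among the 2238 lowered genes, 1097 lay further below mock at 6 h than at 1 h and 5 less far. Against 3 h these were 485 and 5 genes, against 12 h 515 and 104, and against 24 h 738 and 34. For 489 raised genes (29.7%) and 795 lowered genes (35.5%) no difference between 6 h and another time passed, which does not show that their course was flat.

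A small number of genes had their peak at 6 h by these tests. At 6 h 53 raised genes (3.22%) lay further above mock than at each of the other 4 times, and their median log2 fold change at 1, 3, 6, 12 and 24 h was 0.41, 1.21, 2.31, 1.25 and 0.54. The corresponding pattern held for 166 lowered genes (7.42%), with medians of -0.19, -0.55, -1.93, -0.43 and -0.46. A few other genes turned their direction. Of the raised genes 52 (3.16%) were called lower at 1 h, with a median of -0.71 at 1 h and 1.44 at 6 h. Of the lowered genes 99 (4.42%) were called higher at 1 h, with a median of 0.92 at 1 h and -1.445 at 6 h. At 12 h 82 lowered genes (3.66%) were called higher, with a median of -1.53 at 6 h and 1.11 at 12 h. In all of these genes the difference between the times passed its own test. Over all genes tested, 19.0% were called lower at 1 h, 17.7% higher at 1 h and 28.4% higher at 12 h. The shares in the lists were thus below those of all genes, with no test of this difference. A further 212 raised genes lay further above mock at 12 h than at 6 h, with medians of 1.92 at 6 h and 3.555 at 12 h. The values of these groups follow from their choice and are a description.

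Many genes also differed between time points in mock leaves, and the 6 h genes were set beside that change without using the mock libraries of 6 h. The part of the time of day, of the water spray and of the plants sampled in this was not tested. Between mock at 12 h and mock at 3 h, 21.4% of all genes tested were higher at 12 h and 23.6% were lower (adjusted p under 0.05, edgeR). Of the genes raised by ET at 6 h, 224 (13.6%) were higher at 12 h in mock and 489 (29.7%) were lower, with a median log2 change of -0.24. Of the genes lowered by ET at 6 h, 553 (24.7%) were higher at 12 h and 593 (26.5%) were lower, with a median of 0.00. Among the raised genes the share higher at 12 h in mock was thus below that of all genes, with no test of this difference.

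ET leaves were also compared directly with leaves of the other hormones at 6 h, in a fit of the 15 libraries of that time. The comparisons share the 3 ET libraries, so each is given by its own count. Of 18253 genes tested, 8910 (48.8%) differed between ET and SA, 9005 (49.3%) between ET and MeJA, and 9386 (51.4%) between ET and ABA, where 9501 (52.1%) differed between ET and mock (edgeR). At least 2-fold higher after ET were 1111 genes against SA (6.09%), 1569 against MeJA (8.60%), 1491 against ABA (8.17%) and 1635 against mock (8.96%). At least 2-fold lower after ET were 2080 genes against SA (11.4%), 2021 against MeJA (11.1%), 2107 against ABA (11.5%) and 2120 against mock (11.6%). At 8-fold and more, falls outnumbered rises against SA only. Against SA 102 genes were higher after ET and 216 lower, where it was 313 and 111 against MeJA, 211 and 95 against ABA, and 355 and 132 against mock.

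The 3 ET libraries lay above all 12 other libraries of 6 h in 2326 of the 18253 genes (12.7%) and below all of them in 2506 genes (13.7%). With a gap of at least 2-fold between the nearest libraries in CPM, these were 233 and 294 genes. The genes described by identifier all differed between ET and each of SA, MeJA and ABA (adjusted p under 0.05, edgeR). They were chosen for large differences from mock in the same 3 ET libraries, which by itself favours a distance from the hormones. Their values and tests against the hormones are therefore a description. CA.PGAv.1.6.scaffold744.5 had 107.8 ± 17.7 CPM after ET, 49.0 ± 12.7 CPM after SA, 0.212 ± 0.089 CPM after MeJA, 1.56 ± 2.1 CPM after ABA and 0.047 ± 0.081 CPM in mock (SD, n = 3). ET was higher than SA by 1.17 ± 0.24 on the log2 scale (SE, adjusted p = 0.000329, edgeR), and the SA libraries lay well above mock without reaching those of ET. CA.PGAv.1.6.scaffold1014.55 had 7048 ± 392 CPM after ET, 2927 ± 387 CPM after SA, 3701 ± 51 CPM after MeJA, 2516 ± 288 CPM after ABA and 1724 ± 28 CPM in mock. ET was higher than MeJA, the nearest of these, by 0.91 ± 0.14 on the log2 scale (SE, adjusted p = 1.52e-05, edgeR).

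In both falls ET was also lower than each of the other hormones, and here too the choice of the genes favours such a distance. CA.PGAv.1.6.scaffold1478.11 had 0 counts after ET, 1.17 ± 0.09 CPM after SA, 1.38 ± 0.32 CPM after MeJA, 1.49 ± 0.50 CPM after ABA and 3.55 ± 1.07 CPM in mock. ET was lower than SA (adjusted p = 7.04e-05), MeJA (adjusted p = 2.16e-05) and ABA (adjusted p = 1.31e-05, edgeR). CA.PGAv.1.6.scaffold92.11 had 6807 ± 1095 CPM after ET, 11274 ± 1483 CPM after SA, 12856 ± 331 CPM after MeJA, 12743 ± 1850 CPM after ABA and 13760 ± 346 CPM in mock. Its log2 difference of ET from SA was -0.71 ± 0.17 (SE, adjusted p = 0.00147, edgeR), and no ET library reached the lowest library of the other treatments, which had 9732 CPM after SA.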

How the data were processed

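The authors checked reads with FastQC 0.11.8, used cutadapt 1.15 and Trimmomatic 0.38 for adapters and low-quality bases, mapped reads with HISAT2 to the CM334 genome v.1.6 and counted them by gene with HTSeq 0.11.2 (names and versions per the labels, genome per the study's methods). The deposited values are raw counts per gene, not normalized, with 1 column for each library. Strand and multiple-mapping settings are not given in the sources used here, so reads of overlapping genes and gene copies may be shared. Bukang reads were mapped to another cultivar.

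Genes were tested with edgeR 4.0.16 in R 4.3.3 (filterByExpr, TMM, glmQLFit, glmQLFTest), with Benjamini-Hochberg adjustment over all genes tested and 0.05 as the threshold. The fit of ET and mock at 1 to 24 h held 30 libraries in 10 groups, and the fit of 6 h held 15 libraries in 5 groups. A standard error is the absolute log2 fold change over the square root of F. It is computed back from the test and is not a measure of precision for genes near 0 counts. CPM used the total counts. The code was tested on simulated data. The 17127 genes not tested held at most 0.129% of a library's counts, and 11364 of them had 0 counts in all 6 libraries. Python 3.11.15, numpy 2.4.6, pandas 2.3.3, scipy 1.17.1 and matplotlib 3.10.9 were used.

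Groups and replicate numbers came from the sample titles. The labels call the replicates biological. Intervals and floors cover counting error only. The 4 genes were named by a rule set out in the report. Members, gene lists and tests were chosen with earlier results of these data known. The alternatives were RLE, upper-quartile and no scaling, DESeq2 1.42.0, other filters, a replicate block, other sets of libraries, a test against 1.5-fold and leaving out single libraries.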

Additional observations from a re-analysis of the deposited data

Results flagged for a closer look

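The effect of ET at 6 h differed from that at another time point, by a direct test of the difference of differences, in 4825 genes against 1 h, 2117 genes against 3 h, 3730 genes against 12 h and 3909 genes against 24 h (adjusted p under 0.05, edgeR). Whether each time point of a treatment came from plants of its own is not stated in the study's methods. The part of other differences between the plants sampled was not tested. Single outlying libraries were not searched for, since each group holds 3.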

How the results depend on the processing

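Of 185 values of 12 counts of genes under the alternatives, 180 stayed within 1.5 times of the value reported. All 62 values for the 4 named genes kept their direction and an adjusted p under 0.05. The named genes were chosen for large changes, so this says little about stability. CA.PGAv.1.6.scaffold744.5 and CA.PGAv.1.6.scaffold1478.11 were not tested with at least 10 counts in every library. The log2 fold change of CA.PGAv.1.6.scaffold92.11 fell short of 2-fold without ET replicate 1 (-0.99) or ET replicate 3 (-0.97) of 6 h. The test against a 1.5-fold difference called 4112 genes at 6 h, 1767 higher and 2345 lower, which is stricter by construction. A minimum of 10 counts in every library left 788 genes raised and 1304 lowered by at least 2-fold among 13396 tested. It removes by construction the genes near 0 in one group. Leaving out each of the 6 libraries in turn gave 8871 to 9045 genes at 6 h, among 19028 to 19044 tested. Same-numbered ET and mock libraries of 6 h did not deviate together (correlations of 0.0479, 0.0391 and 0.0147), and the replicate numbers were taken as names only. With the replicate block 9973 genes were called at 6 h, and the other counts stayed within 1.5 times as well. The median log2 fold change of all genes was between -0.02 and 0.03 under the 4 scalings. All of them take rises and falls as balanced or totals as equal, so a shift of most genes in 1 direction cannot be seen. Fewer genes were called at low level, and the part of depth in this was not tested.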

Other observations

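Genes that changed in one direction at 6 h often carried consecutive identifiers. The identifiers give a scaffold and a running number, and whether consecutive numbers mean adjacent genes was not tested. Among 11455 pairs of tested genes with consecutive numbers on a scaffold, 196 pairs were both raised at least 2-fold and 269 pairs both lowered. Seen from a raised gene, 19.4% of its tested neighbours in number were raised too, where 8.76% of all genes tested were. Seen from a lowered gene, 20.2% of the neighbours were lowered, where 11.9% of all genes were. Neighbours in the opposite direction were not more frequent than among all genes, with 10.1% lowered beside raised genes and 7.63% raised beside lowered genes. Runs of 3 or more consecutive identifiers held 103 raised genes in 31 runs, with 7 genes in the longest, and 109 lowered genes in 33 runs, with 6 in the longest. These values are a description. Reads shared between similar copies would also give neighbours like counts, and their part in these numbers was not tested.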
